A study of Mus musculus with 2 samples.

Results

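The CC chemokine genes described here are Ccl2, Ccl3, Ccl4, Ccl5, Ccl6, Ccl7, Ccl9, Ccl12, Ccl22 and Ccl24. They were chosen by name, and all 10 were found by their Ensembl IDs among the 54446 genes of the deposited count files, with symbols from GENCODE M21. The samples were bone marrow derived macrophages of C57BL/6 mice, cells grown from marrow progenitors in culture, either left without treatment (control) or given the interleukin-1 family cytokine IL-36 gamma. Each group had 1 library of total RNA. The question was which transcripts differ between untreated and cytokine-treated macrophages. Dose, length of exposure, culture medium and number of mice are not given in the labels. Since each group is a single library, the differences could not be set against replicate spread and carry no p-value. In bulk RNA, fewer cells of a type and less RNA per cell cannot be told apart.

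CC chemokines are small secreted proteins with 2 adjacent cysteines near the start of the mature chain. They bind G protein-coupled receptors on leukocytes and direct their migration. Macrophages are a main source of many of them. Ccl2, Ccl7 and Ccl12 are ligands of Ccr2 and draw monocytes. Ccl3, Ccl4 and Ccl5 attract monocytes, T cells and NK cells, and Ccl3 and Ccl5 bind Ccr1. Ccl6 and Ccl9 are mouse chemokines of the Ccr1 ligand group that myeloid cells make in quantity. Ccl22 binds Ccr4, found on regulatory and type 2 helper T cells, and Ccl24 (eotaxin-2) binds Ccr3 on eosinophils.

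The genes lie in 2 blocks on chromosome 11 and at 2 single sites (GENCODE M21, GRCm38, the assembly also named mm10). Ccl2 (82035571 to 82037453), Ccl7 (82045712 to 82047525) and Ccl12 (82101845 to 82103400) sit within 67.8 kb on the plus strand. About 1422 kb further, Ccl5 (83525778 to 83530518), Ccl9 (83572919 to 83578636), Ccl6 (83587882 to 83593087) and Ccl3 (83647844 to 83649355), all on the minus strand, and Ccl4 (83662584 to 83664683, plus strand) sit within 139 kb. Ccl24 is on chromosome 5 (135569937 to 135573049, minus strand) and Ccl22 on chromosome 8 (94745590 to 94751699, plus strand). No exonic base of the 10 genes overlaps an exon of another gene on either strand. Among coding sequences, Ccl3 and Ccl4 were the closest pair, with 68.1% identical aligned positions. Ccl6 and Ccl9 followed with 64.6%, Ccl7 and Ccl12 with 63.2%, and the other pairs had at most 62.8%. No run of 50 bases was shared between protein-coding transcripts of any 2 of the 10 genes. Of 2957 such runs in Ccl9, 59 also occurred in other genes, and none of those in the other 9 did.

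Promoter sequences from RefSeq (GRCm38.p6) were matched for 5 of the 10 genes (Ccl3, Ccl6, Ccl9, Ccl12 and Ccl22). Those of the neighbours Ccl9 and Ccl6, which lay on opposite sides of a ratio of 1, and of Ccl3 and Ccl12, which were both higher with IL-36 gamma, are printed for the 250 bases before the RefSeq start, 5′ to 3′ on the gene's strand. They come from chr11:83578637-83578886 (Ccl9, minus), chr11:83593088-83593337 (Ccl6, minus), chr11:83649379-83649628 (Ccl3, minus) and chr11:82101595-82101844 (Ccl12, plus). Capitals mark matches, on either strand, to the letters searched, which are GGGNNNTTC for NF-kB, TGANTCA for AP-1, TTGCNNAA for C/EBP, GAGGAAGT for ETS factors, GAAANNGAA for the interferon-stimulated response element (ISRE) and TATAAA for the TATA box.
Ccl9: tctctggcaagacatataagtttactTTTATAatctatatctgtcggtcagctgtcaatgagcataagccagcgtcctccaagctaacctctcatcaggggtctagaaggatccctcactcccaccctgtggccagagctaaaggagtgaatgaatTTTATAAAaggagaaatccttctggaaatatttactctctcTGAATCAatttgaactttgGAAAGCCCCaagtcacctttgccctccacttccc
Ccl6: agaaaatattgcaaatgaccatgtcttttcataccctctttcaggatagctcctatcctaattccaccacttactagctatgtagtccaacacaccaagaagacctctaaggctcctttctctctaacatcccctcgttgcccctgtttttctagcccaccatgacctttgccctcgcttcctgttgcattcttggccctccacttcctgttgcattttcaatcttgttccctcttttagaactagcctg
Ccl3: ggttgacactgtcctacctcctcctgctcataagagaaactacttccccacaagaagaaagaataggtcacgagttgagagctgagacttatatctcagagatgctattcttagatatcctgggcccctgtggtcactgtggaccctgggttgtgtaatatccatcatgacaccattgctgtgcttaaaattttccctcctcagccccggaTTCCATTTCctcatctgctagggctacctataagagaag
Ccl12: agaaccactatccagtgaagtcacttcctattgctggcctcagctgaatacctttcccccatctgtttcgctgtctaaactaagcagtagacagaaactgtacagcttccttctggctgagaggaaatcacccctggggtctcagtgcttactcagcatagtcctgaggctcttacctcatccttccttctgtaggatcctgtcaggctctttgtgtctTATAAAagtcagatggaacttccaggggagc

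The NF-kB letters were present in the Ccl9 window only of the 5, read on the opposite strand from 34 bases before the start, and in 14.0% of all 32851 promoter windows of 300 bases. TATAAA was found in Ccl9 and in Ccl12, where it began 31 bases before the start, and in 13.6% of all windows. The AP-1 letters (7.81% of windows) matched once, in Ccl9 from 53 bases before the start. The ISRE letters, a core of the element bound by interferon regulatory factors, matched in Ccl3 from 39 bases before the start, on the opposite strand, and in 8.56% of all windows. The C/EBP and the ETS letters matched in none of the 5 windows and in 10.8% and 3.20% of all windows. The NF-kB letters did not overlap another match. In Ccl9 a pair of TATAAA matches on opposite strands overlapped each other. A match is a run of letters, not a measured binding site.

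Gene counts summed to 17426367 (control) and 17267900 (IL-36 gamma). The defining macrophage markers were abundant. Adgre1, a surface receptor gene of macrophages, stood at 2782 CPM (counts per 1000000 of the TMM-scaled library) in the control and 3170 after treatment, and the CSF-1 receptor gene Csf1r at 1517 and 1228. Of the 10 macrophage markers 3 were above and 6 below the control, judged here and below by a 95% counting interval of the ratio. Each had a mean of at least 1000 counts over the 2 libraries, a depth at which 44.3% of genes were above and 22.9% below. Of all measured genes (a mean of at least 10 counts), 20.2% were above and 16.5% below. Neutrophil markers summed to 151 and 243 CPM, with 6 of 9 measured genes above the control and none below. Of these only Elane (3 and 22 counts) was past 2-fold over its whole interval, with a ratio of 7.70 (2.31 to 40.2). Monocyte markers summed to 122 and 188 CPM, with 5 of 6 above and none below. Dendritic cell markers summed to 47.8 and 34.4 CPM, 1 of 2 measured genes above and 1 below, with Cd209a and Siglech at 0 in both libraries. Mast cell, basophil and eosinophil markers summed to 2.36 CPM in each library, with Cpa3, Fcer1a, Mcpt8, Ms4a2 and Prg2 at 0. Markers of T, NK and B cells summed to 1.24 and 0.53 CPM, with Cd3e, Cd3g and Ncr1 at 0. Stromal markers summed to 13.1 and 7.80 CPM, with 3 of 5 below the control. Neutrophil and monocyte markers thus moved the same way as most CC chemokine genes below, and their part in those values was not tested.

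Bone marrow derived macrophages carried CC chemokine mRNA without treatment, mostly of Ccl9, Ccl6 and Ccl3, and somewhat more with IL-36 gamma. The 10 genes together took 13687 counts without and 14504 with IL-36 gamma, or 0.0785% and 0.0840% of all gene counts. After TMM scaling (edgeR) these sums were 770 and 857 CPM, a ratio of 1.11 with a 95% counting interval from 1.09 to 1.14. That interval was not computed with other scalings, and Ccl9 alone held 48.8% of the control counts in the sum. Intervals here are exact (Clopper-Pearson) and cover counting error only. Reads copied by amplification count separately in them. Ccl22, Ccl12, Ccl5, Ccl4, Ccl3 and Ccl9 were higher with IL-36 gamma, Ccl6 was slightly lower, and Ccl2 and Ccl7 had intervals that include 1.

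A gene counted as measured with a mean of at least 10 counts over the 2 libraries. This kept 9 of the 10 genes and left out Ccl24. Of the 9, 6 had their whole interval above 1, against 20.2% of all 14379 measured genes. By the same measure 1 of the 9 was below 1, against 16.5%. An interval narrows with depth, so the 4 genes with a mean of at least 1000 counts were also read against genes of like depth. Of these 4, 3 were above 1 and 1 below, against 44.3% and 22.9% of 3455 genes. That contrast rests on few genes. None of the 9 was past 2-fold over its whole interval in either direction, against 0.0765% of all measured genes higher and 0.0904% lower. The median log2 ratio (prior count of 2) was 0.38 over the 9 genes and 0.01 over all measured genes, and the members ran from -0.10 to 0.90. It was 0.20 over those with a mean of at least 50 counts, which leaves out Ccl12 and Ccl22. With scaling to total counts the same 6 and 1 genes remained on their sides of 1, while over all genes the numbers above and below moved from 2907 and 2375 to 2070 and 3214.

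**Figure D1:**
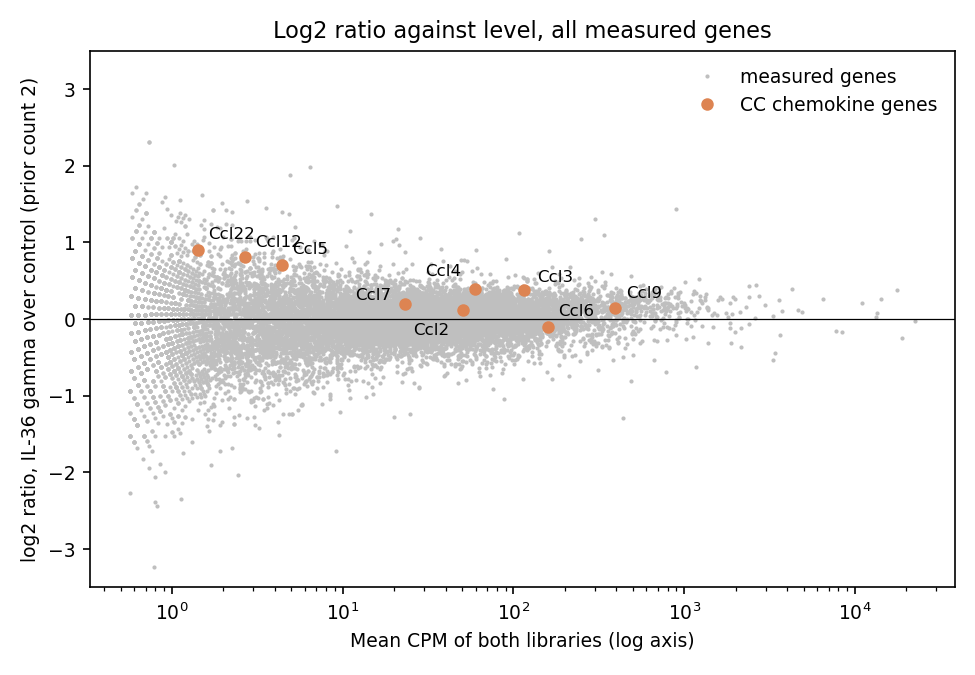
Log2 ratio of IL-36 gamma over control (prior count of 2) against the mean CPM of both libraries on a log axis, 1 grey point for each of 14379 measured genes and orange points for the 9 measured CC chemokine genes. Ccl22, Ccl12 and Ccl5 sit high at low counts, Ccl3 and Ccl4 lie at 0.38 and 0.40, and Ccl6 at -0.10.

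The CC chemokine genes differed in level by a wide margin. Levels of different genes are given per kb of exon. In the control, Ccl3 stood at 132 CPM per kb, Ccl9 at 124, Ccl6 at 91.6 and Ccl4 at 78.3. Ccl2 followed at 42.8 and Ccl7 at 27.0, then Ccl12 at 3.56, Ccl5 at 3.46, Ccl22 at 0.411 and Ccl24 at 0.217. Counting intervals of neighbours in this order overlapped for Ccl3 and Ccl9, for Ccl12 and Ccl5 and for Ccl22 and Ccl24. With IL-36 gamma the levels were 171 CPM per kb for Ccl3, 136 for Ccl9, 103 for Ccl4 and 85.5 for Ccl6. Per kb of exon Ccl4 and Ccl6 thus changed places, with intervals that did not overlap in either library. That exchange depends on the length used. Per kb of the longest transcript Ccl6 stayed above Ccl4, at 21.5% against 14.8% of the summed level of the 10 genes in the control and 17.4% against 16.8% with IL-36 gamma. Ccl5 also stood above Ccl12 in both libraries by that length. Counting intervals were not computed by that length, and the shares of Ccl6 and Ccl4 with IL-36 gamma lay close together. Per kb of exon, the rest kept their order, at 46.7 CPM per kb for Ccl2, 31.0 for Ccl7, 6.38 for Ccl12, 5.72 for Ccl5, 0.813 for Ccl22 and 0.228 for Ccl24. There, only the intervals of Ccl12 and Ccl5 overlapped.

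**Figure D2:**
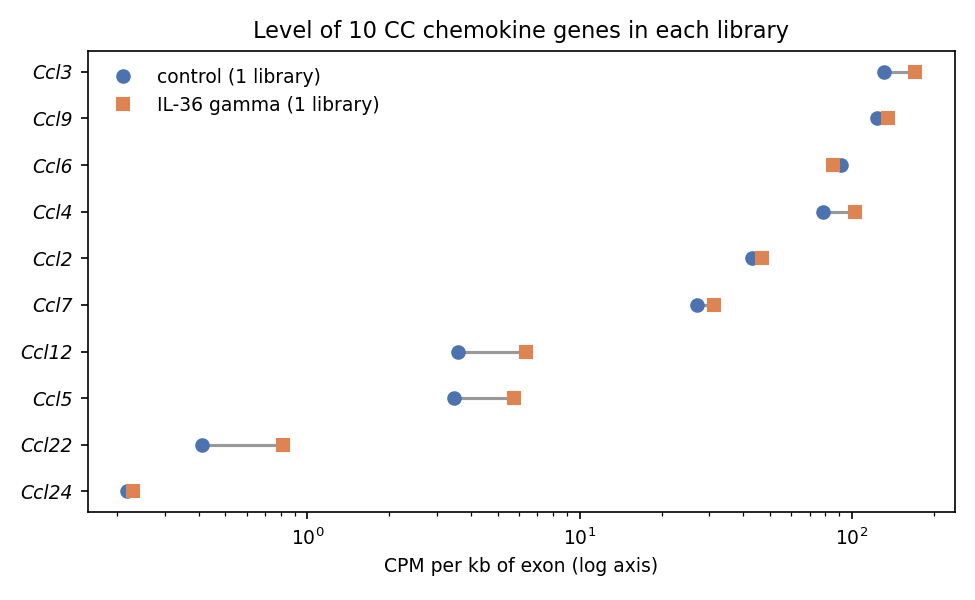
Level of each CC chemokine gene in CPM per kb of exon (log axis), circles for the control library and squares for the IL-36 gamma library, 1 library each. Ccl3, Ccl9, Ccl6 and Ccl4 lie between 78.3 and 171 CPM per kb, and Ccl22 and Ccl24 below 1.

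Ccl3 and Ccl4, the macrophage inflammatory proteins 1 alpha and 1 beta, were higher by nearly the same factor. Ccl3 (ENSMUSG00000000982.5) had 1794 counts without and 2220 with IL-36 gamma, or 101 and 131 CPM, a ratio of 1.30 (1.22 to 1.38). Ccl4 (ENSMUSG00000018930.3) had 918 and 1151 counts, or 51.7 and 68.0 CPM, a ratio of 1.32 (1.21 to 1.44). Their genes are neighbours, 13.2 kb apart on opposite strands, and the ratio of Ccl3 to Ccl4 counts was 1.95 without and 1.93 with IL-36 gamma. Ccl5 (RANTES, ENSMUSG00000035042.2) was far less abundant. It had 59 and 93 counts, a ratio of 1.65 (1.18 to 2.33). Of all measured genes 91.6% had a lower log2 ratio than Ccl3, 92.4% a lower one than Ccl4 and 97.8% a lower one than Ccl5.

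Ccl9 and Ccl6 are adjacent, 9.25 kb apart on the same strand, and held most CC chemokine counts. Ccl9 (ENSMUSG00000019122.8) had 6686 counts without and 7025 with IL-36 gamma, or 376 and 415 CPM, a ratio of 1.10 (1.07 to 1.14). Ccl6 (ENSMUSG00000018927.3) had 2923 and 2600 counts, or 164 and 154 CPM, a ratio of 0.934 (0.885 to 0.985). Ccl6 was the only one of the 10 genes with its whole interval below 1. Its difference is small, and the interval included 1 once a trend of ratios on GC content was removed (ratio 0.950). That of Ccl9 also included 1, from 0.994, once a trend on expression level was removed (ratio 1.03). The ratio of Ccl6 to Ccl9 counts, which needs no scaling between libraries, was 0.437 in the untreated library and 0.370 in the treated one. It changed by a factor of 0.847 (0.795 to 0.902).

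Of the monocyte chemoattractants Ccl2, Ccl7 and Ccl12 in the other block of chromosome 11, only Ccl12 had its whole interval above 1. Ccl2 (MCP-1, ENSMUSG00000035385.5) had 866 and 899 counts, or 48.7 and 53.1 CPM, a ratio of 1.09 (0.991 to 1.20). Ccl7 (MCP-3, ENSMUSG00000035373.2) had 385 and 421 counts, or 21.7 and 24.9 CPM, a ratio of 1.15 (0.997 to 1.32). Neither could be told apart from 1 at this depth. Ccl12 (MCP-5, ENSMUSG00000035352.3) had 34 and 58 counts, or 1.91 and 3.43 CPM, a ratio of 1.79 (1.15 to 2.82). Ccl2 and Ccl7 passed above 1 once a trend of ratios on GC content was removed, with ratios of 1.11 and 1.18. Relative to Ccl2, Ccl12 was higher with IL-36 gamma: there were 25.5 Ccl2 counts for each Ccl12 count in the untreated cells and 15.5 in the treated cells, a change by a factor of 0.609 (0.382 to 0.956). The ratio of Ccl7 to Ccl12 counts changed by a factor of 0.641, with an interval that includes 1 (0.398 to 1.02). With TMM scaling the 3 genes summed to a ratio of 1.13 (1.04 to 1.22). Of the 1285 control counts in this sum, 866 were of Ccl2 and 385 of Ccl7. Its interval was not computed with other scalings.

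Ccl22 and Ccl24, genes often used as markers of alternative activation, were scarce. Ccl22 (macrophage-derived chemokine, ENSMUSG00000031779.3) had 17 counts without and 32 with IL-36 gamma, or 0.957 and 1.89 CPM. Its ratio of 1.98 (1.06 to 3.79) was the highest of the 10 with the second widest interval. The interval included 1 (0.995 to 3.54) once a trend of ratios on exon length was removed. Ccl24 (ENSMUSG00000004814.10) had 5 counts in each library, a ratio of 1.05 (0.242 to 4.56), so that a difference of several-fold either way was not detectable. Dendritic cells also make Ccl22. The 2 measured genes of 9 dendritic cell markers lay on opposite sides of 1, Batf3 (176 and 225 counts) with a ratio of 1.34 and Itgax (644 and 332 counts), which macrophages also express, with 0.541. The other 7 had at most 12 counts in a library, among them Flt3 (1 and 2), Zbtb46 (5 and 5) and Ccr7 (3 and 12), a marker of mature dendritic cells. Their part in the Ccl22 value was not tested.

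**Figure D3:**
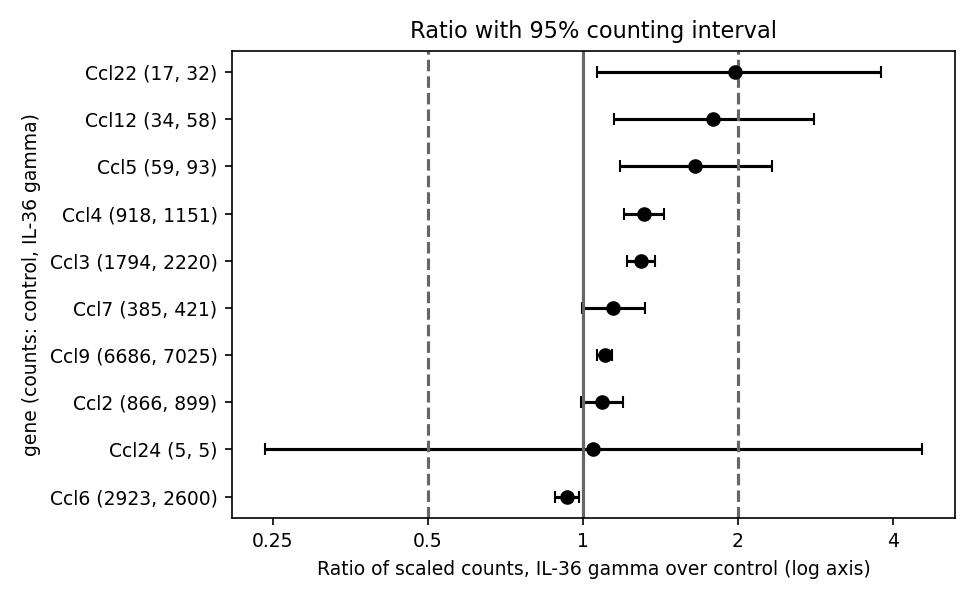
Ratio of scaled counts, IL-36 gamma over control, on a log axis, with the 95% counting interval of each of the 10 genes and both counts beside its name. The solid line marks 1 and the dashed lines 0.5 and 2. Intervals of 6 genes lie above 1, that of Ccl6 below it, and those of Ccl2, Ccl7 and Ccl24 include 1.

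CC chemokine mRNAs are short, and ratios in these libraries followed length. The 10 genes have 537 to 3045 exonic bases, with 8 under 2 kb, against a median of 3890 over measured genes. Measured genes under 2 kb had a median log2 ratio of 0.11 and longer ones -0.01. With a trend on exon length removed, the median over the 9 measured genes was 0.29, with 5 above 1 and 1 below. Ccl3 (1.23), Ccl4 (1.25), Ccl5 (1.55) and Ccl12 (1.72) were above 1 under each of the 7 other scalings tried, and these are their lowest ratios.

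**Figure D4:**
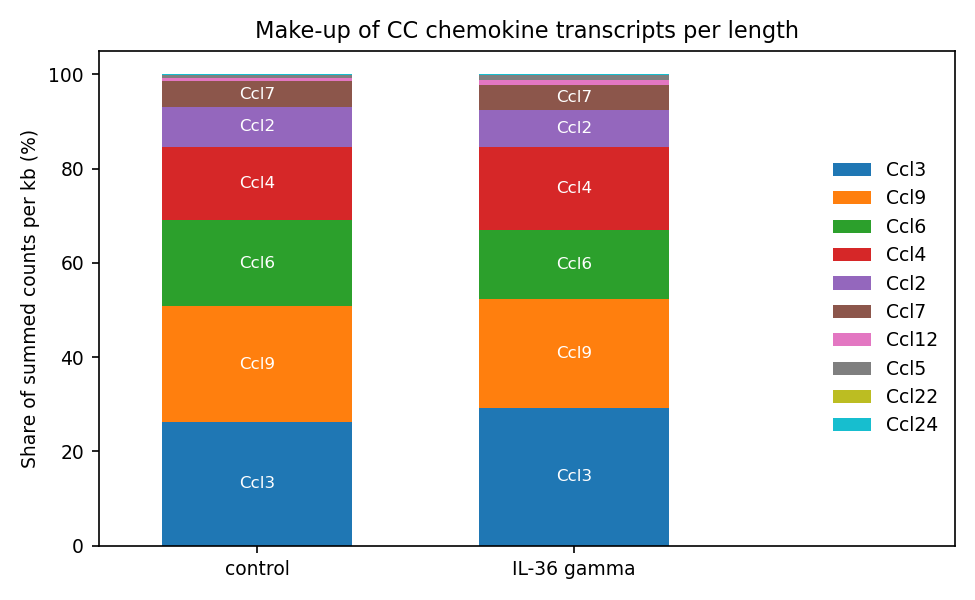
Share of each CC chemokine gene in the summed counts per kb of exon of the 10 genes (%), 1 bar for each library. The share of Ccl3 is 26.2% without and 29.2% with IL-36 gamma, and that of Ccl6 is 18.2% and 14.6%.

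The make-up of the pool shifted toward Ccl3 and Ccl4 and away from Ccl6. Per kb of exon, Ccl3 and Ccl4 together made up 41.8% of the pool in the untreated library and 46.7% in the treated one. Ccl6 and Ccl9 together made up 42.8% and 37.8%, of which Ccl9 held 24.6% and 23.2%. Of raw counts, Ccl6 held 21.4% (20.7 to 22.0) in the untreated cells and 17.9% (17.3 to 18.6) in the treated cells, and these exact binomial intervals did not overlap. The share of Ccl9 in raw counts, 48.8% (48.0 to 49.7) and 48.4% (47.6 to 49.2), differed by less than its intervals. Ccl2, Ccl7 and Ccl12 together held 14.6% and 14.3% per kb.

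Comparing the genes with each other within a library avoids scaling between libraries. Of the 45 pairs of genes, 16 changed their count ratio by more than the 95% counting interval, and 29 did not. Intervals were not adjusted for the number of pairs, which share genes. Ccl6 was lower relative to 8 of the other 9 genes, all but Ccl24. Relative to Ccl6, Ccl3 was 1.39 times higher with IL-36 gamma (1.28 to 1.51), Ccl4 1.41 times (1.27 to 1.56) and Ccl5 1.77 times (1.26 to 2.51). Relative to Ccl9, Ccl3 was 1.18 times higher (1.10 to 1.27) and Ccl4 1.19 times (1.09 to 1.31). Ccl3 against Ccl4 changed by a factor of 0.987 (0.886 to 1.10), and Ccl2 against Ccl7 by 0.949 (0.801 to 1.13).

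**Figure D5:**
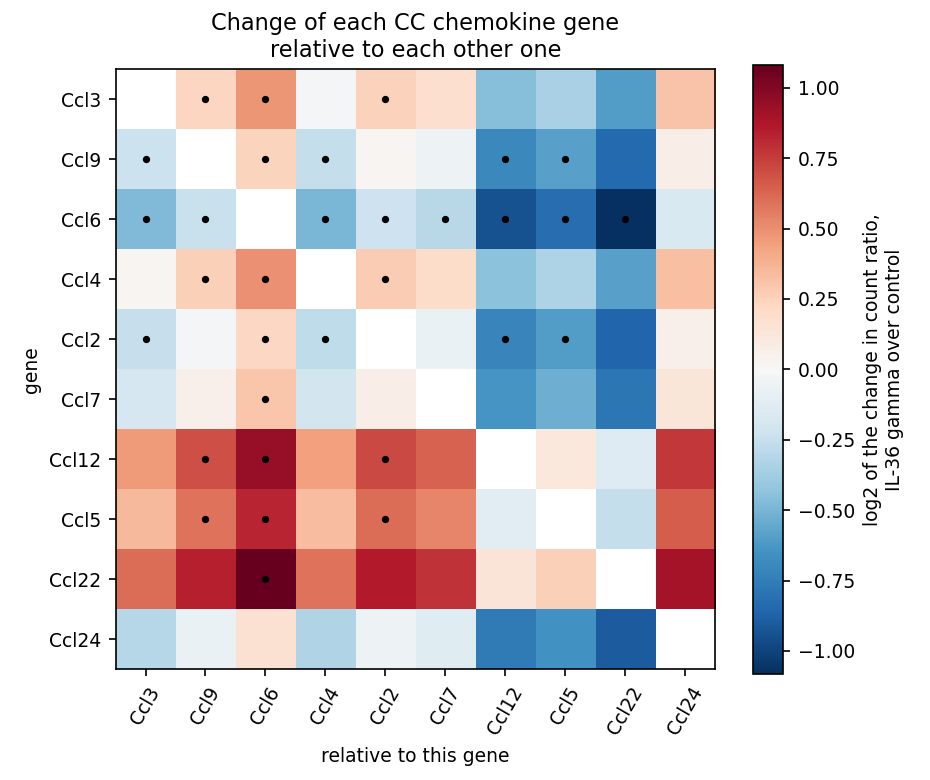
Log2 of the change in the count ratio of each gene (rows) to each other gene (columns), IL-36 gamma over control. Dots mark pairs whose 95% interval does not include a factor of 1, and the row of Ccl6 is blue throughout, with dots in 8 of 9 cells.

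Most other CC chemokine ligand genes had few or no counts. Of 14 other ligand genes listed, 13 were found, and Ccl1, Ccl11, Ccl17, Ccl19, Ccl20, Ccl21a, Ccl21b and Ccl26 had 0 counts in both libraries. A count of 0 allows up to 3 counts, or 0.169 CPM without and 0.177 CPM with IL-36 gamma. Ccl17, which shares the receptor Ccr4 and a chromosomal site with Ccl22, was thus not detected. The monocyte chemoattractant Ccl8 had 2 and 8 counts, with an interval from 0.838 to 40.6. Only Ccl25 (117 and 91 counts) and Ccl27a (24 and 31) were measured, with intervals that include 1. In the control they stood at 0.884 and 0.568 CPM per kb of exon, above Ccl22 (0.411) and Ccl24 (0.217). With IL-36 gamma they stood at 0.722 and 0.770, between Ccl22 (0.813) and Ccl24 (0.228). Ccl25 shares 204 exonic bases with Elavl1 on the opposite strand, and reads of the 2 genes there may not be told apart, since the strand setting is not given.

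Transcripts of receptors for these ligands were detected in the same libraries, with differences in both directions. Of 15 listed receptor genes 7 were measured, 2 above and 1 below 1, against 20.2% and 16.5% of all measured genes. That contrast rests on few genes. The median log2 ratio of the 7 was 0.12, and none was past 2-fold. Ccr2, the receptor of Ccl2, Ccl7 and Ccl12, had 307 and 373 counts, a ratio of 1.28 (1.09 to 1.49). Ccr2 is also a monocyte marker. The atypical receptor gene Ccrl2 had 166 and 197 counts, a ratio of 1.25 (1.01 to 1.54), and its interval included 1 with 4 of the other scalings. The receptors Ccr1 (1063 and 981 counts, ratio 0.969) and Ccr3 (207 and 215 counts, ratio 1.09) had intervals that include 1, and Ccr4 had 0 counts. These last 3 were named after their values were seen, as receptors of the ligands above.

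Among regulators of chemokine transcription and mRNA decay, 14 of 27 measured genes were above 1 and 5 below, with a median log2 ratio of 0.13 and none past 2-fold. Most are deeply counted: 22 had a mean of at least 1000 counts, with 14 above 1 and 3 below, against the 44.3% and 22.9% of all genes of that depth. Irf7, a transcription factor of the interferon response, had 2889 and 5682 counts, a ratio of 2.06 (1.97 to 2.16). The leucine zipper factor gene Cebpb had 4040 and 5342 counts, a ratio of 1.39 (1.33 to 1.45). Bcl3, a nuclear IkB protein, had a ratio of 1.35 (1.26 to 1.44). Irf7, Cebpb and Bcl3 have 45, 312 and 161 exonic bases that overlap a gene on the opposite strand. The 5 lower genes, named after their values were seen, included Rel (0.888, 0.793 to 0.994), the NF-kB inhibitor Tnfaip3 (0.820) and the AP-1 factor Fosl2 (0.828). The others were Zfp36l1 (0.785) and Zfp36l2 (0.809) of the tristetraprolin family, which promotes decay of mRNAs with AU-rich elements. The number of regulators below 1 was 4 with the trend on exon length removed. It was 6 with total counts and with the trend on expression removed. Zfp36 itself, the tristetraprolin gene, had a ratio of 1.14 (1.08 to 1.20), also named after it was seen. In Zfp36l1, 1672 of 2990 exonic bases overlap a gene on the opposite strand. Zfp36 has 125 such bases, Zfp36l2 has 105, and Rel, Tnfaip3 and Fosl2 have 0. Reads of overlapping genes may not be told apart there, since the strand setting is not given. Rela, the NF-kB subunit p65, had 2179 and 2166 counts and an interval that includes 1 (0.983 to 1.11).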

How the data were processed

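Raw counts per Ensembl gene were deposited by the authors, 1 library per group. Reads had gone through STAR 2.5.0a and HTSeq on mm10, with Trim Galore 0.6.1 and FastQC 0.11.8 also listed, per the submitters' processing notes. No source used here gives the annotation release, the strand setting or HTSeq's settings. Rows that name no gene were left out. Of the summed counts of all rows (control and IL-36 gamma), they held 47.2% and 46.3% as unassigned and 1.79% and 1.84% as ambiguous. A further 6.65% and 6.92% were not uniquely aligned. GENCODE M21 matched 54409 of 54446 gene IDs without version numbers.

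Counts were scaled with TMM (edgeR 4.0.16, R 4.3.3), with factors of 1.02 and 0.981. No edgeR test was possible with 1 library per group. Ratios carry exact 95% intervals, and a size rule asked for a whole interval above 2-fold or below 0.5. The rule was tested on simulated data. Alternatives were other scalings (DESeq2 1.42.0 size factors, upper quartile, total counts, protein-coding genes, lowess trends with a span of 0.3 on expression, exon length and GC content of the longest transcript), count filters, fold bounds, 99% intervals, prior counts and thinning.

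All 10 genes are named. Of other lists, genes past the size rule are named, and otherwise up to 4 per list with an interval off 1 and at least 50 counts, ranked by the bound nearest 1. Values of some genes of these lists are not reported here. Members and lists were chosen with earlier results of these data known. The comparison of member pairs, the length split and the promoter windows were chosen after seeing the data.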

Additional observations from a re-analysis of the deposited data

How the results depend on the processing

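No paired analysis was possible because each group has 1 library. The sample titles give no replicate number, while the names of both count files carry the number 2, so the libraries may belong to a larger set. Any others were not analysed here. The number of CC chemokine genes above 1 ran from 4 (mean count of at least 50, which leaves out Ccl12 and Ccl22) to 8 (GC trend removed). Under every setting tried 0 were past 2-fold in either direction, including a bound of 1.5-fold. The number below 1 was 0 in place of 1 with the GC trend removed and with a 99% interval. The number of receptors above 1 was 1 in place of 2 with total counts, DESeq2 size factors, TMM from protein-coding genes and the length trend removed. The share of Ccl9 was 48.8% and 48.4% of raw counts (control and IL-36 gamma) and 23.6% and 22.5% per kb of the longest transcript. Over all genes, 11 were past 2-fold higher and 13 lower. These became 50 and 76 at 1.5-fold, 156 and 251 by the point ratio, 7 and 5 with a 99% interval, 16 and 21 with no filter, 8 and 5 where the mean count was at least 50, and 8 and 16 with total counts. Leaving out genes overlapped on the opposite strand removed none of the 10. Depth limits Ccl24 and Ccl22 most, and differences between cultures were not measured.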

Other observations

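Genes beside the CC chemokine genes were also read. Within 200 kb of the 10 genes lie 40 other protein-coding genes, of which 23 were measured, 6 with an interval above 1 and 2 below it. Of all measured genes, 20.2% were above and 16.5% below. Beside Ccl5, Ccl9, Ccl6, Ccl3 and Ccl4, 7 were measured and 1 was above 1. This was Wfdc17, which encodes a small secreted protein with a whey acidic protein domain, with 1990 and 2635 counts and a ratio of 1.39 (1.31 to 1.47). Wfdc17 was named after its value was seen. Taf15 (1412 and 1421 counts, ratio 1.06) and Ap2b1 (2766 and 2749 counts, ratio 1.04), at the other end of that block, had intervals that include 1. Beside Ccl2, Ccl7 and Ccl12 none of 6 was measured. Next to Ccl22, the CX3C chemokine gene Cx3cl1 had 49 and 43 counts, a ratio of 0.921 (0.597 to 1.42).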
